A study of Mus musculus with 16 samples.

Results

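The Reg (regenerating) family is a group of small secreted C-type lectins and growth factors, and all 7 mouse members on the array, Reg1, Reg2, Reg3a, Reg3b, Reg3d, Reg3g and Reg4, were followed in colon mucosa. They were taken by gene symbol, each had a single row in the value table, and they are 7 of the 30791 named genes tested. The samples were 16 arrays of the mucosal layer of the proximal colon of male C57BL/6J mice, fed from 6 weeks of age for 10 weeks. Wild-type (WT) controls were Mccf/f mice, homozygous for a floxed Mcc gene and without Cre, on control feed (n = 6), and WT lesions were inflamed areas of Mccf/f mice on feed with 320 ppm sulindac, which blocks cyclooxygenases (n = 3). Knockout (KO) controls were VILcreMccf/f siblings on control feed (n = 3), and KO lesions were inflamed areas of VILcreMccf/f mice on 320 ppm sulindac (n = 4). The villin promoter drives Cre in intestinal epithelium, so other cells of the mucosa keep Mcc, and every group carries the floxed allele. No group holds uninflamed mucosa of sulindac-fed mice, so the drug and the choice of inflamed tissue cannot be told apart.

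Reg3g and Reg3b are secreted into the gut lumen by epithelial cells. Reg3g kills Gram-positive bacteria by binding peptidoglycan and Reg3b acts on Gram-negative bacteria, and both are induced by microbes and by interleukin 22 acting through STAT3. Reg1 and Reg2 are best known from the exocrine pancreas, where they are among the genes that rise in injury. Reg3a and Reg3d are close relatives of Reg3b and Reg3g, and Reg4, the most distant member, marks secretory cells deep in the colonic crypt and some enteroendocrine cells.

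In the RefSeq annotation of GRCm38.p6, 6 members lie on chromosome 6 within 97990 bases, in the order Reg3b, Reg3d, Reg3a, Reg2, Reg1 and Reg3g, with the pseudogene Gm52853 between Reg1 and Reg3g, and Reg4 lies on chromosome 3. The promoters below, from RefSeq (GRCm38.p6), run from 250 bases before the gene start to 50 bases from the start on. They are shown because Reg3b and Reg3g, at the ends of the cluster, were high in lesions while Reg3d, next to Reg3b, stayed under the array medians. Capitals mark 3 things: the run shared by Reg3b and Reg3g, the letters TATAAA on the strand shown, and the STAT-type motif TTCNNNGAA, which reads the same way on both strands.
Reg3b, chr6:78370635-78370934, plus strand: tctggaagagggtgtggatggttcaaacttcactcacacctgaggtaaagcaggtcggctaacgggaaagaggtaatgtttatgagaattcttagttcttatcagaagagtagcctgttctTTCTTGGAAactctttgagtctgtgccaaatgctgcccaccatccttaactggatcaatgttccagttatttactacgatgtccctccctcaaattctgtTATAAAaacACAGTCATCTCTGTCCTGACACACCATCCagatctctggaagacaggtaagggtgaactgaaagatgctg
Reg3g, chr6:78468825-78469124, minus strand: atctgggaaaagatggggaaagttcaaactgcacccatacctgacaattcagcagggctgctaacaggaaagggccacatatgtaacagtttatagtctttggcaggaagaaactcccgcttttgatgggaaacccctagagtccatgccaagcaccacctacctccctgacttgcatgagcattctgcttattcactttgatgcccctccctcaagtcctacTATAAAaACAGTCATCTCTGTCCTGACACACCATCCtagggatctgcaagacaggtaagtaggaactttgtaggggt
Reg3d, chr6:78378816-78379115, minus strand: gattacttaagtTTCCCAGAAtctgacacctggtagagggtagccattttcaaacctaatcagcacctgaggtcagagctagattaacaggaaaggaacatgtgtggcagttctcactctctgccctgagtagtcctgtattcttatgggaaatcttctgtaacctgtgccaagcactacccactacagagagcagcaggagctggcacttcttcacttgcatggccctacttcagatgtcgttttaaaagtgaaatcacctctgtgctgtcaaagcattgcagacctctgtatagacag
The Reg3b and Reg3g promoters shared a run of 29 bases, ACAGTCATCTCTGTCCTGACACACCATCC, which began 20 bases before the start in both and was found in 2 of the 32851 promoters of the table. They were identical at 68.6% of aligned positions, against at most 56.4% for the other pairs among the 21, whose longest shared run was 14 bases. TATAAA on either strand was present in 4 of the 7 members (Reg1, Reg2, Reg3b and Reg3g) and in 13.6% of all promoters. TTCNNNGAA was present in 2 of the 7, Reg3b at position -129 and Reg3d at position -238 from the start, and in 8.3% of all promoters. The motif was thus in a promoter of a gene that was high in lesions and in one that was not, and these matches are a description of the letters only.

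The array values are log2 expression after robust multi-array averaging (RMA), and the medians of the 16 arrays lay between 4.90 and 5.05. Mcc was 6.39 to 6.71 in the 7 KO arrays and 7.06 to 7.40 in the 9 WT arrays. Epithelial markers such as Epcam and Krt8 were well above the array medians in every group, with a mean log2 level over 10 of 10 markers of 11.2 to 11.8 in single arrays. Leukocyte markers were higher in lesions, with a list mean of 5.78 to 6.10 in the 9 control arrays. It was 7.10 to 7.23 in WT lesions and 7.30 to 8.07 in KO lesions. The number of genes called between KO and WT lesions turned on KO lesion 3, being 94 with it and 1699 without it. By correlation over all genes KO lesion 3 was not the least like its group. It correlated at r = 0.9894 with KO lesions 2 and 4, and KO lesion 1 was at 0.9848, 0.9825 and 0.9879 with lesions 2, 3 and 4. It was the lowest KO lesion in leukocyte markers, at 7.30 against 7.87, 8.07 and 7.94 in KO lesions 1, 2 and 4. For neutrophil markers the list mean was 7.60 in KO lesion 3, against 8.28, 8.77 and 8.64. Whether this bears on the calls was not tested. No label states that arrays come from separate animals, so p-values measure the spread between these samples, which may be technical.

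**Figure D1:**
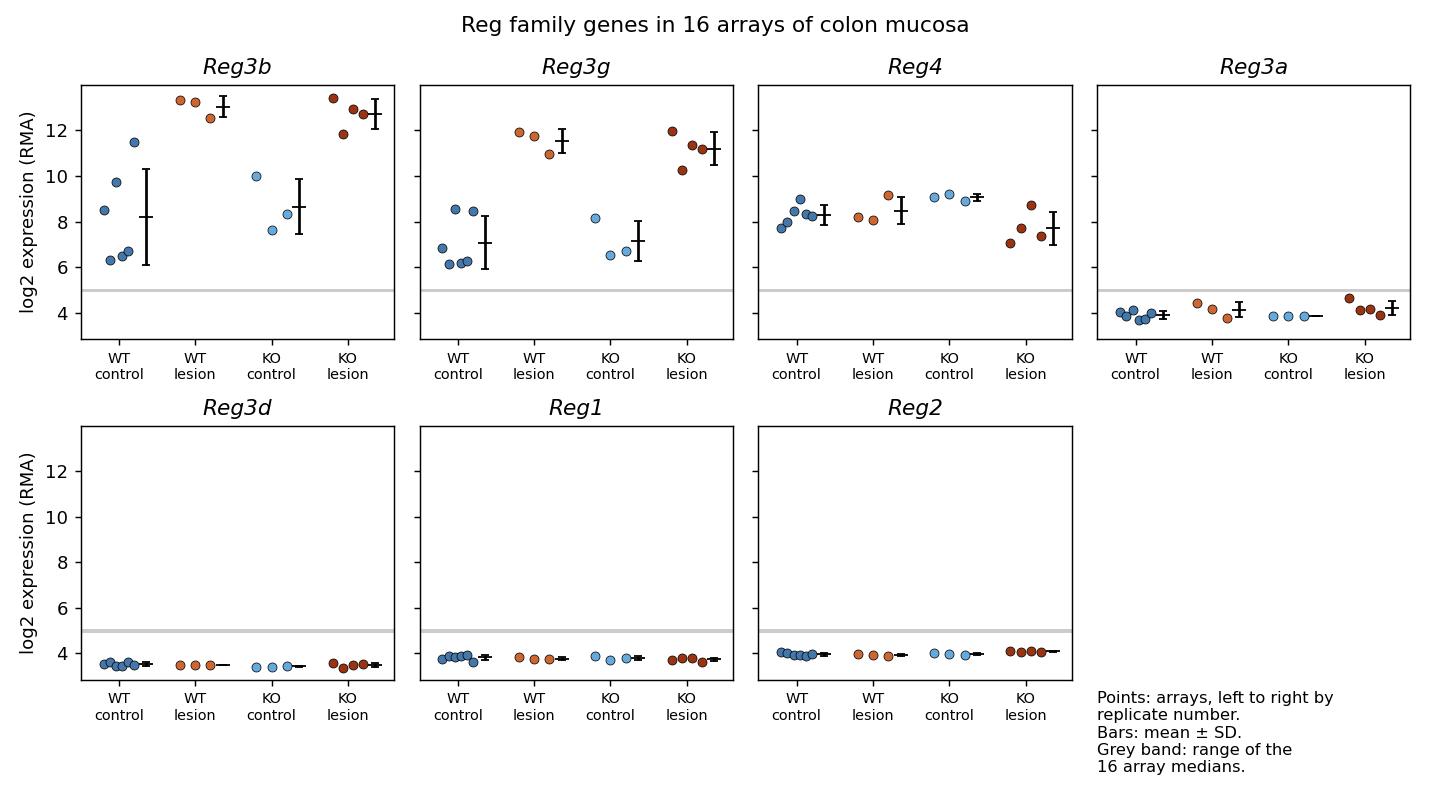
Log2 expression (RMA) of the 7 Reg genes in each of 16 arrays by group, with the group mean ± SD beside the points and a grey band for the range of the array medians (4.90 to 5.05). Reg3b and Reg3g are above all controls in every lesion, Reg4 lies between 7.06 and 9.20, and the other 4 genes lie under the band in every array.

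Reg3b and Reg3g rose in the lesions of both genotypes, by 16.7-fold to 28.7-fold, and Reg4 fell in KO lesions and did not pass the limma test in WT lesions, while Reg1, Reg2, Reg3a and Reg3d stayed below the array medians in all 16 arrays. In WT mice 2 of the 7 members passed the test, both higher, against 15.3% of all genes called, 6.96% higher and 8.36% lower. In KO mice 3 passed, 2 higher and 1 lower, against 21.1% called, 8.97% higher and 12.1% lower. Whether the response of any member differed between genotypes was tested as an interaction, and none of the 7 passed.

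Reg3b, whose product binds bacteria of the Gram-negative kind, ran from a lowest value of 6.29 through a median of 7.60 to a highest value of 11.49 in the 6 WT controls. In the 3 WT lesions it was 13.33, 13.26 and 12.54. The lesions lay above every WT control, although WT control 6 was at 11.49 and WT control 3 at 9.75 while WT controls 2, 4 and 5 were at 6.29, 6.50 and 6.69. The mean went from 8.20 ± 2.11 (SD, n = 6) to 13.04 ± 0.44 (SD, n = 3), a log2 difference of 4.84 (SE 0.94, 95% interval 2.85 to 6.83), or 28.7-fold, with a limma adjusted p of 0.0021. Without WT control 6 it was 5.50, or 45.2-fold (adjusted p = 1.5e-04). The exact two-sided permutation test over these arrays gave p = 0.0238, the smallest it can give here.

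In KO mice Reg3b was 9.98, 7.61 and 8.35 in the 3 controls. It was 13.40, 11.84, 12.95 and 12.71 in the 4 lesions. All 4 lesions lay above the 3 controls, with a gap of 1.86 between the closest arrays, and KO lesion 2 was the lowest of the 7 lesions. The log2 difference was 4.08 (SE 1.01, 95% interval 1.93 to 6.23), or 16.9-fold, with a limma adjusted p of 0.0084. Without KO control 1 it was 4.74, or 26.8-fold (adjusted p = 0.0101). The highest value of any row on an array was 13.6 to 13.8, so Reg3b in lesions was near the top of the scale.

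Reg3g, the peptidoglycan-binding lectin, had a lowest value of 6.12, a median of 6.56 and a highest value of 8.56 in the 6 WT controls. In the WT lesions it was 11.93, 11.75 and 10.95. The groups were 2.39 apart at their closest arrays, with WT controls 3 and 6 the highest of the controls again, at 8.56 and 8.48. The mean went from 7.08 ± 1.15 (SD, n = 6) to 11.54 ± 0.52 (SD, n = 3), a log2 difference of 4.47 (SE 0.58, 95% interval 3.23 to 5.70), or 22.1-fold, with a limma adjusted p of 8.1e-05 and an exact permutation p of 0.0238.

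In KO controls Reg3g was 8.15, 6.54 and 6.72. In KO lesions it was 11.99, 10.24, 11.37 and 11.19. KO lesion 2 was again the lowest lesion and KO control 1 the highest KO control, and the groups did not overlap. The log2 difference was 4.06 (SE 0.63, 95% interval 2.72 to 5.39), or 16.7-fold, with a limma adjusted p of 2.3e-04. With 3 against 4 arrays the exact two-sided test cannot go below 0.0571, the value it gave for Reg3b, Reg3g and Reg4 in KO mice.

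Numbers in the sample descriptions form a lower and a higher series of unstated meaning. WT controls hold 3 of each, KO controls only the higher and all lesions only the lower, so in KO mice the series and the diet cannot be told apart and only WT controls link them. In WT controls of the lower series Reg3b ran from 6.29 to 9.75 and in those of the higher from 6.50 to 11.49. With WT controls of the lower series alone, the WT differences were 4.86 for Reg3b (limma adjusted p = 0.0017) and 4.36 for Reg3g (adjusted p = 8.5e-04). With the series as a covariate, the KO difference of Reg3g was 3.85 (adjusted p = 0.0201), while that of Reg3b was 4.12 and missed the threshold (adjusted p = 0.1347).

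**Figure D2:**
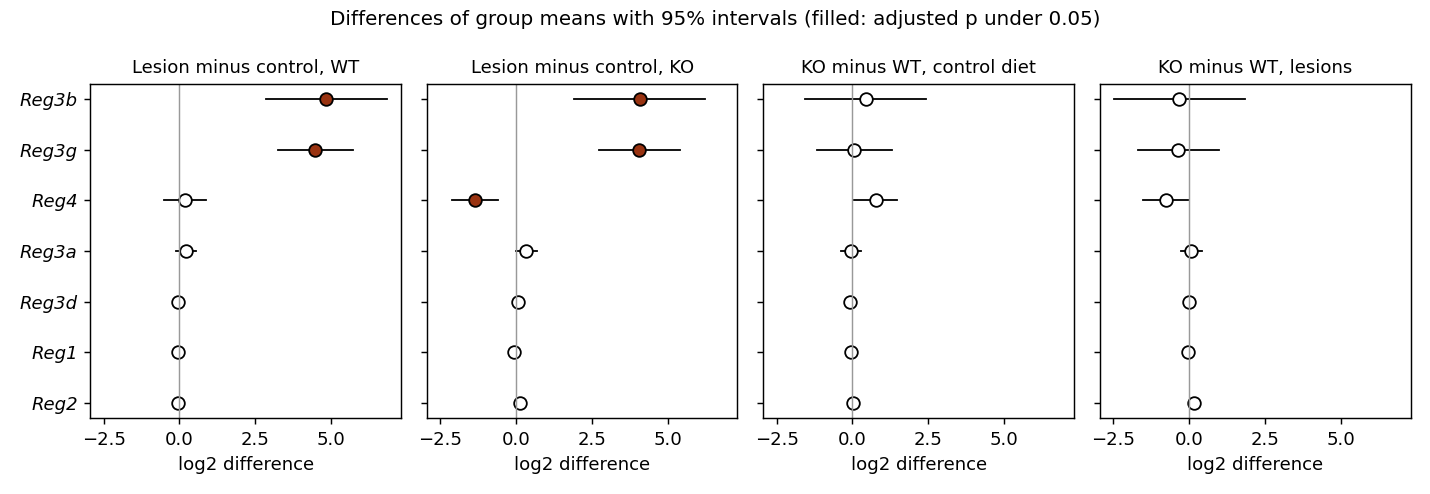
Log2 differences of group means with 95% intervals for the 7 Reg genes in 4 comparisons, filled where the limma adjusted p was under 0.05. Reg3b and Reg3g are filled in both lesion comparisons, Reg4 in KO lesions (-1.34), and none in the KO against WT comparisons.

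The genotypes were not told apart by Reg3b or Reg3g on either diet. On the control diet the KO minus WT difference was 0.44 for Reg3b (95% interval -1.55 to 2.44) and 0.06 for Reg3g (-1.18 to 1.30), both with a limma adjusted p of 0.9995. Between lesions it was -0.32 for Reg3b (-2.47 to 1.83, adjusted p = 0.8929) and -0.35 for Reg3g (-1.68 to 0.99, adjusted p = 0.8080). The interaction was -0.76 for Reg3b (-3.70 to 2.17) and -0.41 for Reg3g (-2.23 to 1.41), with adjusted p of 0.7991 and 0.8272. None of the 7 members passed in these 3 comparisons. Over all genes 0% were called on the control diet (0 of 30791 by limma), 0.305% between lesions, 0.247% higher and 0.0585% lower in KO, and 0.00325% in the interaction. Mcc itself did not pass on the control diet (-0.60, limma adjusted p = 0.0832) and passed between lesions (-0.79, adjusted p = 0.0032). The absence of calls on the control diet thus does not show that the genotypes were alike. At an unadjusted p under 0.05 stood 1 member, Reg4, on the control diet against 2.1% of all genes, 2 between lesions, Reg2 and Reg4, against 13.4%, and 1 in the interaction, Reg4, against 11.1%. With the replicate block the genes called between lesions fell from 94 to 2.

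Reg3b and Reg3g varied together from array to array. Their deviations from the group means correlated at r = 0.93 over the 16 arrays, which share the quantile normalisation, and no p is given. The log2 value of Reg3b minus that of Reg3g, whose zero has no meaning because the probes differ, was 1.40 to 1.60 in the 7 lesions, with an SD of 0.08. In the 9 controls the same quantity ran from 0.17 to 3.01, with an SD of 0.90, and WT control 6 held the highest value. The 7 lesions therefore held a nearly fixed offset between the genes. The spread in controls was larger in WT (SD 1.09) than in KO controls, which ran from 1.07 to 1.82 (SD 0.39). Reg3b in lesions was near the top of the scale, and whether that narrowed the spread was not tested. Probe sequences were not used here, so hybridisation of transcripts of one gene to probes of the other was not tested, and the split between Reg3b and Reg3g is uncertain to that extent.

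**Figure D3:**
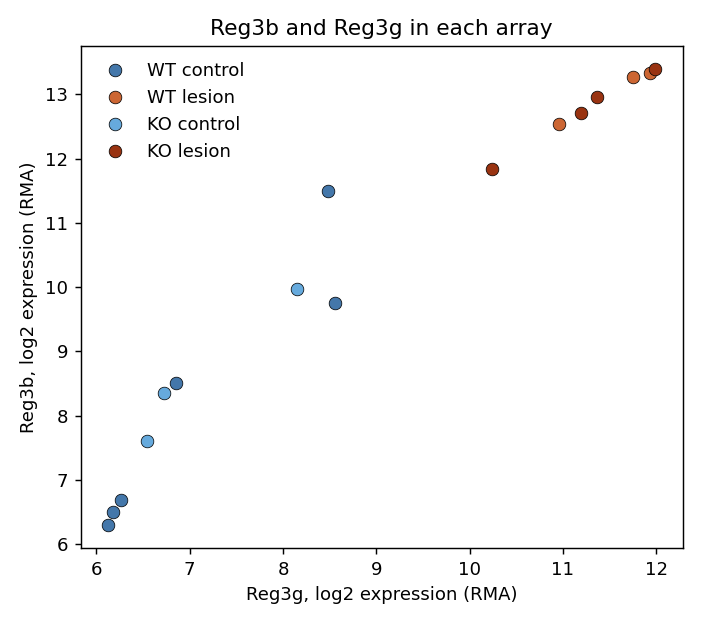
Log2 expression (RMA) of Reg3b against that of Reg3g in each array, coloured by group. The 7 lesions form a line at the upper right with an offset of 1.40 to 1.60, and the 9 controls spread from 6.29 to 11.49 in Reg3b.

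Reg4 was lower in KO lesions than in KO controls. It was 9.07, 9.20 and 8.89 in KO controls. It was 7.06, 7.71, 8.72 and 7.35 in KO lesions. Every KO lesion lay under every KO control, by 0.17 at the closest, and KO lesion 3 was the highest lesion. The log2 difference was -1.34 (SE 0.36, 95% interval -2.10 to -0.58), with a limma adjusted p of 0.0131. With the number series as a covariate it was -0.87 and missed the threshold (adjusted p = 0.4329), and without KO lesion 3 it was -1.68 (adjusted p = 9.0e-04).

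In WT mice Reg4 had a lowest value of 7.73, a median of 8.29 and a highest value of 9.01 in the 6 controls. In the 3 WT lesions it was 8.21, 8.06 and 9.17. The groups overlapped, with 2 lesions inside the range of the controls and WT lesion 3 above it. The difference was 0.18 (SE 0.33, 95% interval -0.52 to 0.89), with a limma adjusted p of 0.7524, and it was -0.16 without WT lesion 3.

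Between genotypes the KO minus WT difference of Reg4 was 0.76 in controls (SE 0.33, limma adjusted p = 0.9995, exact permutation p = 0.0476). In lesions it was -0.77 (SE 0.36, limma adjusted p = 0.3669, exact permutation p = 0.2286). Neither passed, and the groups overlapped on both diets. The interaction was -1.53 (SE 0.49, 95% interval -2.57 to -0.49) and did not pass over all genes (limma adjusted p = 0.4054). Without KO lesion 3 the lesion difference was -1.11 (adjusted p = 0.0469) and the interaction -1.87 (adjusted p = 0.0346), so both calls turned on that array. A fall of Reg4 in KO and not in WT lesions is thus not shown by these 16 arrays to differ between genotypes. With WT controls of the higher number series alone, which all KO controls carry, the control difference was 0.52 (adjusted p = 1).

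Many markers of the cells that Reg4 is known to mark fell in lesions of both genotypes, and so did some markers of absorptive colonocytes. Of 14 deep crypt secretory and goblet cell markers, 0 rose and 8 fell in WT lesions and 12 fell in KO lesions, with median log2 differences of -0.70 and -1.17 against -0.06 and 0.01 over all genes. Of all genes 15.3% passed in WT and 21.1% in KO lesions, 8.36% and 12.1% being lower. Kit, a receptor of deep crypt secretory cells, named after its values were seen, fell by 1.83 in WT and by 1.82 in KO lesions (limma adjusted p = 1.8e-05 and 2.6e-05). Atoh1, the factor that sets secretory fate, also named after its values were seen, differed by -1.33 and -2.20 (adjusted p = 0.0039 and 9.0e-05). The list mean was 10.96 to 11.13 in WT controls, 10.06 to 10.33 in WT lesions, and 10.99 to 11.06 and 9.61 to 10.41 in KO mice. Reg4 did not follow the mean of this list throughout. In WT lesions Reg4 differed by 0.18 without passing. Among KO lesions the list mean was highest in lesion 2 and Reg4 in lesion 3. Single markers, named after their values were seen, were divided. Agr2 and Spink4 were highest in KO lesion 3, as Reg4 was, and Kit, Atoh1, Spdef and Muc2 in KO lesion 2. Agr2 differed by -0.46 in WT and by -1.28 in KO lesions (limma adjusted p = 0.1169 and 2.8e-04). Spink4 differed by -0.32 and by -1.49 (adjusted p = 0.3924 and 4.5e-04). Muc2 and Creb3l1 also passed in KO lesions only. Of 10 enteroendocrine markers 8 fell in WT and 7 in KO lesions. The list mean was 7.17 to 7.53 in WT controls and 6.15 to 6.26 in WT lesions. In KO mice it was 7.32 to 7.62 and 5.85 to 6.93. Of 11 colonocyte markers 1 rose and 5 fell in WT lesions and 1 rose and 4 fell in KO lesions, with medians of -0.82 and -0.79. Their list mean was 11.21 to 11.37 in WT controls and 10.38 to 10.98 in WT lesions, and 11.28 to 11.40 and 10.22 to 11.09 in KO mice. In bulk mucosa fewer cells of a type and less RNA per cell cannot be told apart, and the part of either in the Reg4 values was not tested.

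The profiles closest to Reg4 were those of Ncapd3, a condensin II subunit, E2f8, a transcription factor of the E2F family, and Cenpn, a centromere protein. Likeness was the root mean square difference between profiles over the 16 arrays, each centred on its own mean, and it was 0.26, 0.27 and 0.28 on the log2 scale, against 0.64 for the spread of Reg4 itself. Their deviations from the group means correlated with those of Reg4 at r = 0.87, 0.89 and 0.87. The 3 genes were chosen by likeness over the same 16 arrays. A high r and similar group differences follow from that choice. Ncapd3 was 8.30, 8.40 and 7.81 in the 3 KO controls. It was 6.25, 7.26, 7.96 and 7.25 in the 4 KO lesions, and KO lesion 3 lay above KO control 3. It fell by 0.99 in KO lesions (limma adjusted p = 0.0332), while E2f8 and Cenpn differed by -0.94 and -0.88 without passing (adjusted p = 0.0674 and 0.0504). In WT lesions the 3 genes differed by 0.09, 0.24 and 0.18, and none passed.

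**Figure D4:**
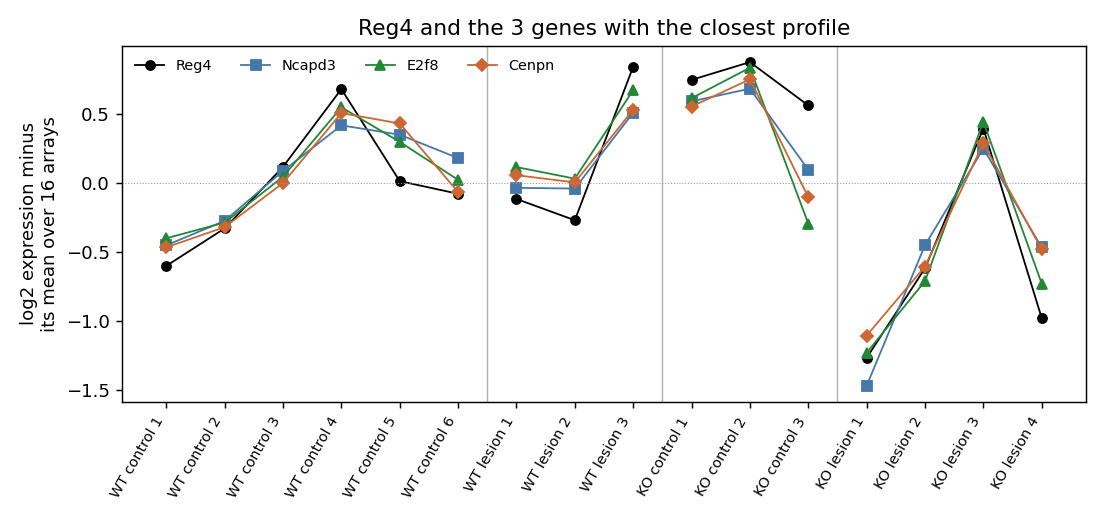
Log2 expression of Reg4, Ncapd3, E2f8 and Cenpn, each minus its own mean over the 16 arrays, by group and replicate number. Within the lesions of each genotype all 4 genes are highest in replicate 3 (Reg4 8.72 in KO, 9.17 in WT), and all are lowest of the 16 arrays in KO lesion 1 (Reg4 7.06).

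The profiles closest to Reg3g were those of Ly6c2 and Ly6c1, surface proteins of the Ly6 family, and Dcn, the matrix proteoglycan decorin, with root mean square differences of 0.74, 0.86 and 0.88 against 2.26 for the spread of Reg3g itself. The same 3 genes were closest to Reg3b, at 1.24 for Ly6c2, 1.37 for Dcn and 1.38 for Ly6c1 against 2.59. All 3 rose in the lesions of both genotypes, Ly6c2 by 4.12 in WT and 4.42 in KO on the log2 scale (limma adjusted p = 1.8e-08 and 1.3e-08). As the 3 genes were chosen by likeness, these rises follow from the choice. The deviations of the 3 genes from the group means correlated with those of Reg3g at r = 0.48 for Ly6c2, 0.22 for Ly6c1 and 0.07 for Dcn.

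The remaining members were dim. Reg1, Reg2, Reg3a and Reg3d ranged from 3.35 to 4.63 over the 16 arrays, under the lowest array median, and RMA gives no detection call. Reg3a, a lectin of the Reg3 branch, was 4.43, 4.17 and 3.78 in WT lesions. Its lowest, median and highest values in WT controls were 3.68, 3.92 and 4.14. Those groups overlapped, whereas in KO mice the lesions, at 4.63, 4.12, 4.14 and 3.90, all lay above the controls at 3.87, 3.86 and 3.85. The KO difference was 0.34 (SE 0.16) and missed the threshold (limma adjusted p = 0.1714), and the WT difference was 0.22 (adjusted p = 0.3638).

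Reg2, the pancreatic stone protein relative, was 4.12, 4.07, 4.10 and 4.05 in KO lesions. It was 3.99, 3.91 and 3.87 in WT lesions and 4.0, 3.98 and 3.92 in KO controls. The KO lesions lay above both other groups without overlap, by 0.12 over KO controls (limma adjusted p = 0.1767) and 0.16 over WT lesions (limma adjusted p = 0.2532), and neither difference passed. Reg1 and Reg3d had group means of 3.74 to 3.83 and 3.43 to 3.53, with no difference above 0.10 in any comparison and the groups overlapping in all 4. Groups of 5 members did not overlap in the KO response, namely Reg2, Reg3a, Reg3b and Reg3g above and Reg4 below, against 12.6% and 14.4% of all genes. In the WT response the groups of 2 members did not overlap, Reg3b and Reg3g, against 8.13% of all genes above and 11.5% below. Between lesions the groups of 1 member did not overlap, Reg2, against 5.49% of all genes above and 3.91% below. On the control diet no member was without overlap, against 0.195% above and 1.19% below.

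Markers of pancreatic acinar cells, a known source of Reg1 and Reg2, were dim in part. Of 15 such genes, 6 had a mean under the lowest array median in every group, among them the trypsinogen gene Prss2 at group means of 3.98 to 4.11 and the amylase gene Amy2b at 2.94 to 3.08. The brightest of the list were Zg16, which is in the goblet list too, at 12.41 to 13.02, and Cela1 at 7.81 to 9.45. The list held 1 higher and 2 lower genes in WT lesions and 0 higher and 2 lower in KO lesions, where 15.3% and 21.1% of all genes passed. The list mean was 5.51 to 5.73 in WT controls, 5.42 to 5.47 in WT lesions, and 5.57 to 5.58 and 5.43 to 5.50 in the same order in KO mice. Of 7 Paneth cell genes 2 rose and 2 fell in WT lesions and 2 rose and 3 fell in KO lesions. Their list mean was 6.52 to 7.15 in WT controls, 6.78 to 6.92 in WT lesions, and 6.68 to 7.35 and 6.59 to 6.97 in KO mice. The epithelial marker list mean was 11.23 to 11.40 in WT controls and 11.40 to 11.52 in WT lesions, and 11.22 to 11.37 and 11.49 to 11.75 in KO mice. The part of any of these cells in the Reg values was not tested.

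Genes of the interleukin 22, interleukin 17 and STAT3 axis, the signals known to induce Reg3 genes, rose in part. Of 21 measured, 6 were higher and 1 lower in WT lesions and 15 were higher and 1 lower in KO lesions, with median log2 differences of 0.27 and 0.63 against -0.06 and 0.01 over all genes. Of all genes 15.3% passed in WT and 21.1% in KO lesions. Osmr, the oncostatin M receptor, rose by 3.24 in WT and by 3.79 in KO lesions (limma adjusted p = 3.6e-09 and 1.1e-09). Stat3 rose by 0.57 and by 0.75, and its feedback inhibitor Socs3 by 0.44 and by 0.91. Lif, a cytokine that signals through STAT3, rose by 0.37 and by 0.65. Il22 itself was at 4.94, 4.97 and 4.95 in WT controls, WT lesions and KO controls, close to the array medians, and at 5.42 in KO lesions. The 4 KO lesions were uneven, at 6.27, 5.43, 4.94 and 5.03. Il22 did not pass in either genotype (adjusted p = 0.9486 and 0.1496). Il22ra1, the receptor chain on epithelium, was at 9.51 to 9.74 in the 4 groups and did not pass either (adjusted p = 0.3782 and 0.5918). Other cytokines of the list, named after their values were seen, did pass. Il6 rose by 2.07 in WT and by 3.17 in KO lesions, and Il11 by 0.55 and by 0.92. Il17a, Il17f, Osm, Il23a and Il12b passed in KO lesions only, all higher. Il22ra2, the soluble decoy receptor, was the member that fell, by 0.44 and by 0.52, at means under the array medians. Il17ra, a receptor chain for interleukin 17, was the gene of the list called between lesions, 0.59 higher in KO than in WT on the log2 scale (adjusted p = 0.0349). That call is from the fit without the replicate block, with which far fewer genes were called between lesions. No gene of the list passed in the interaction, so the larger KO count is not shown to be a difference between genotypes. Fibroblast markers moved with these genes. Of 7 measured, 6 rose in each genotype, among them Dcn, and their list mean was 5.90 to 6.36 in the 9 control arrays and 7.36 to 7.86 in the 7 lesions. The part of fibroblasts and leukocytes in these rises was not tested.

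**Figure D5:**
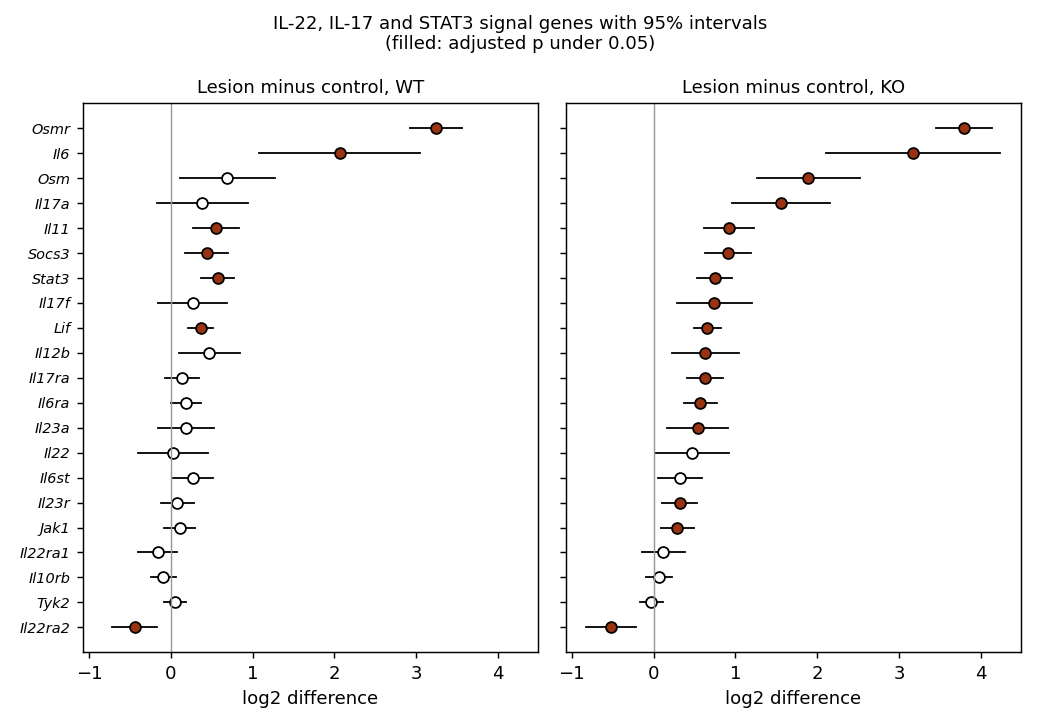
Log2 lesion minus control differences with 95% intervals for 21 genes of the interleukin 22, interleukin 17 and STAT3 list in WT and KO mice, filled where the limma adjusted p was under 0.05. The filled points number 7 in WT and 16 in KO, and Osmr is the highest in both (3.24 and 3.79).

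Genes of microbial sensing moved in both directions. Of 12 Toll-like and NOD receptor signal genes, 2 rose and 1 fell in WT lesions and 3 rose and 1 fell in KO lesions, with medians of 0.20 and 0.27 against -0.06 and 0.01 over all genes, of which 15.3% and 21.1% passed. Cd14, a co-receptor for lipopolysaccharide, rose by 1.64 and by 1.73 on the log2 scale (limma adjusted p = 2.0e-05 and 1.6e-05). Traf6, an adaptor of the same pathway, rose by 0.46 and by 0.57. Tlr5, the flagellin receptor, fell by 0.65 in WT lesions and did not pass in KO lesions (-0.27). Nod2, a sensor of peptidoglycan fragments, rose by 0.50 in KO lesions and did not pass in WT lesions (0.24).

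Other epithelial antimicrobial genes divided in direction. Of 20 measured, 8 rose and 4 fell in WT lesions and 8 rose and 6 fell in KO lesions, with medians of 0.04 and -0.02. Over all genes 15.3% passed in WT and 21.1% in KO lesions. Nos2, inducible nitric oxide synthase, rose by 4.13 and by 4.65 (limma adjusted p = 1.1e-07 and 5.3e-08). Lcn2, which binds bacterial siderophores, rose by 1.51 and by 1.89, and Saa3, a serum amyloid A protein, by 1.36 and by 1.52. Retnlb, a goblet cell protein that acts on bacteria, was at 10.54, 10.90, 10.10 and 9.73 in WT controls, WT lesions, KO controls and KO lesions and did not pass (adjusted p = 0.6183 and 0.6633). Neutrophil markers moved with these groups. The mean of 10 was 4.89 to 5.12 in the 9 control arrays, 6.80 to 7.41 in WT lesions and 7.60 to 8.77 in KO lesions. Of these markers Cxcr2, Csf3r and Retnlg were called higher in KO than in WT lesions (limma adjusted p = 0.0446, 0.0252 and 0.0495). Those calls are from the fit without the replicate block, and none of the markers passed in the interaction. Some of the listed antimicrobial genes are also made by leukocytes. The part of leukocytes in these rises, and in the KO against WT lesion differences, was not tested.

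A list of 8 measured genes held reported Reg receptor and growth signal genes and the transcription factors Gata6 and Cdx2. Of these, 1 rose and 3 fell in WT lesions and 2 rose and 3 fell in KO lesions, with medians of 0.04 and -0.08. Over all genes 15.3% passed in WT and 21.1% in KO lesions. Extl3, reported as a receptor for Reg proteins, was at 7.79 to 8.03 in the 4 groups and did not pass in either genotype (limma adjusted p = 0.3130 and 0.8637). Egfr, the epidermal growth factor receptor, rose by 0.86 and by 1.39 (adjusted p = 3.7e-04 and 7.1e-06). Sdc2, a heparan sulfate proteoglycan, fell by 0.83 and by 1.11, and Bcl2, an inhibitor of apoptosis, fell by 0.53 and by 0.71. Cdx2, a transcription factor of intestinal identity, fell by 0.36 and by 0.64.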

How the data were processed

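RNA of the mucosal layer was hybridised to Affymetrix arrays, 1 per sample. The deposited values are log2 expression made by the authors with RMA, which corrects background, equalises distributions and summarises probes, and Affymetrix Power Tools 1.16.1, per the submitters' processing notes. The build is not given in the sources used here. The number of arrays limits the precision.

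Of 72688 rows, 31283 had 1 gene symbol after older symbols of the same Entrez gene were merged, 1467 had several and 39938 were not listed. Symbols of 845 genes were updated through RefSeq (GRCm38.p6). The highest-mean row of each gene gave 30791 genes. Arrays of the same group correlated at r of 0.983 to 0.996 and none repeated another.

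The test was limma (version 3.58.1, under R 4.3.3), fitted to all 16 arrays with a mean for each of the 4 groups, two-sided, called at a Benjamini-Hochberg adjusted p under 0.05 over all genes. The fit assumes a common SD, whereas Reg3b varied more in controls. Exact permutation tests over arrays used scipy 1.17.1, and after adjustment over the 28 such tests the lowest p was 0.1776. All 7 members are described. From each pathway list the 3 genes with the lowest p per genotype are named, plus Il22, Il22ra1, Stat3, Socs3, Extl3, Lcn2 and Retnlb, and for Reg3b, Reg3g and Reg4 the 3 genes of most similar profile. Intervals are 95%. The members and lists were chosen with earlier results of these data known. Promoters were compared by global alignment (Biopython 1.88, match 1, mismatch -1, with gap penalties).

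The labels give groups shared replicate numbers. Same-numbered arrays deviated together in KO against WT lesions (r of 0.30 to 0.54 over 3 pairs), which was taken as pairing there. Differences between lesions are still printed from the fit without pairing, and the replicate block is given as an alternative below. In the WT response r was 0.10 to 0.35 with 1 pair at 0.097, and in the other comparisons r was below 0, so no pairing was assumed.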

Additional observations from a re-analysis of the deposited data

How the results depend on the processing

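The 5 called differences (Reg3b and Reg3g in both genotypes, Reg4 in KO mice) kept their direction under every alternative run. The counts of called members stayed at 2 for WT lesions, 3 for KO lesions and 0 on the control diet when each array was left out in turn, and ranged from 0 to 1 between lesions and for the interaction, where leaving out KO lesion 3 added Reg4 (-1.11 and -1.87). Adding the number series as a covariate, the KO count was 1, as Reg3b (4.12) and Reg4 (-0.87) missed the threshold. That fit estimates the series from WT controls alone. Leaving out single arrays moved Reg3b from 4.46 to 5.50 in WT (the highest without WT control 6) and from 3.56 to 4.74 in KO, and Reg4 in KO from -1.68 to -1.13.

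With the replicate block, counts of called members were unchanged, Reg4 differed by -0.83 between lesions (limma adjusted p = 0.3578), Reg2 on the control diet by -0.0255 and Reg1 in the interaction by 0.0372. The block changed no call of a member. Genes called between lesions numbered 94, against 2 with the block, 58 with the series as a covariate, 26 with arrays centred on their medians, 5 over all rows, 1 with those groups alone in the fit, 716 with array weights and 4 to 1699 with single arrays left out. In the KO response 6482 became 2514 with the series as a covariate. In the interaction 1 became 1 to 518 and on the control diet 0 became 0 to 2 with single arrays left out, and 1 on the control diet with array weights.

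Signs turned only among differences that did not pass. Centring on medians gave 0.0065 for Reg2 and 0.0111 for Reg3d in the WT response. Reg3a on the control diet was 0.0593 with the series as a covariate and 0.0593 with WT controls of the higher series alone, an alternative chosen after seeing the data. Single arrays left out gave -0.16 to 0.40 for Reg4 in WT. On the control diet they gave -0.45 to 0.36 for Reg3g, -0.0135 to 0.0265 for Reg2, -0.22 to 1.10 for Reg3b and -0.0781 to 0.0087 for Reg1. Between lesions they gave -0.10 to 0.22 for Reg3a and -0.0361 to 0.0337 for Reg3d. In the interaction they gave -0.0461 to 0.0407 for Reg1, -0.0533 to 0.2698 for Reg3a and -0.71 to 0.10 for Reg3g. Reg4 kept its sign in both, at -1.11 to -0.42 between lesions and -1.87 to -1.18 in the interaction. The cause of the changes of sign was not tested. The filter on dim genes keeps 3 members, so it gives no value for Reg1, Reg2, Reg3a and Reg3d.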

Other observations

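Of the 7 measured Paneth cell genes, those not yet described were as follows, with all names here chosen after their values were seen. Lyz1, a lysozyme, went from 6.40 ± 0.23 (SD, n = 6) in WT controls to 9.03 ± 0.21 (SD, n = 3) in WT lesions and from 6.97 to 9.37 in KO mice (limma adjusted p = 5.3e-08 and 1.5e-07). Mmp7, a matrix protease that activates defensins, rose by 2.38 in WT and by 1.45 in KO lesions on the log2 scale (adjusted p = 1.7e-04 and 0.0092). Ang4, an angiogenin with bactericidal activity, fell by 2.09 and by 2.16 (adjusted p = 0.0013 for both). Itln1, intelectin, fell by 2.07 in KO lesions (adjusted p = 0.0349) and differed by -1.57 in WT lesions without passing (adjusted p = 0.1021), with an SD of 1.22 among WT controls. The defensin genes Defa22 and Defa26 did not pass, at 0.06 and -0.03 in WT lesions and 0.19 and 0.04 in KO lesions. Nupr1, a stress-response gene, fell by 0.62 in WT lesions and differed by -0.63 in KO lesions (adjusted p = 0.0124 and 0.0136). Among the other listed genes Pla2g2a, a gene of the secreted phospholipase family, rose by 2.51 in WT and by 1.04 in KO lesions (adjusted p = 4.7e-05 and 0.0350). Duox2, an epithelial oxidase, rose by 1.47 and by 1.87 (adjusted p = 6.0e-04 and 1.0e-04), and its maturation factor Duoxa2 rose by 1.73 and by 2.14 (adjusted p = 3.4e-04 and 7.1e-05).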
